A study of Rattus norvegicus with 16 samples.

Results

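Nptx1, Gmfg, Klkb1 and Map3k7cl are 4 genes whose messenger RNA was far higher at the neuromuscular junction of a rat limb muscle than at the junction of the eye muscles or in fibre away from either junction. Map3k7cl was also above fibre at the eye muscle junction. The genes were picked for that pattern from the measured values, with genes of the extracellular matrix set aside, and are 4 of 14217 genes with a named probe set on the array. Each had 1 probe set. The pattern that chose them is therefore described below without a test.

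The arrays came from 4 rats, numbered 15, 25, 27 and 29, whose genotype and age are not given in the labels used here. In each rat, junctions and fibre were captured by laser from frozen sections of the tibialis anterior (TA), a limb muscle, and of the rectus extraocular muscles (EOM), after an acetylcholinesterase stain had shown the junctions. This gave 4 groups of 4 arrays, 1 per rat, with no treatment in any of them: TA_synapse, TA_fiber, EOM_synapse and EOM_fiber. About 1000 junctions, and as much fibre without a junction, were pooled per muscle, so nerve endings, Schwann cells, vessels and connective tissue at the junction could enter the capture. The deposited values are linear probe set intensities. Differences are given on quantile-normalized log2(intensity + 16), a scale that understates the change of dim probe sets. The number of arrays limits the precision.

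The neuromuscular junction is where a motor axon releases acetylcholine onto a muscle fibre. Nuclei beneath it transcribe a set of genes that nuclei elsewhere in the fibre do not, among them receptor subunits such as Chrne, and ETS factors such as Etv5 are known to act on such genes. None of the 4 genes is a classical component of that set. Nptx1 encodes neuronal pentraxin 1, a secreted protein that clusters AMPA-type glutamate receptors at brain synapses. Gmfg encodes glia maturation factor gamma, a cofilin relative that takes apart actin branches made by the Arp2/3 complex and is best known from blood cells. Klkb1 encodes plasma prekallikrein, a liver-made zymogen whose active form releases bradykinin from kininogen. Map3k7cl encodes a short protein that resembles the C-terminal part of the kinase TAK1 (Map3k7), and its function is little known.

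The promoter windows of Gmfg and Klkb1, shown because transcription at the junction is linked to short promoter motifs, were read from RefSeq sequence of build GRCr8. Each runs from 250 bases before to 50 bases after the gene's start, and the window of Chrne is set beside them as that of a junction gene. Gmfg lies at chr1:92861064-92861363 on the plus strand, Klkb1 at chr16:53690976-53691275 on the plus strand and Chrne at chr10:55834105-55834404 on the minus strand. Capitals mark the N-box CCGGAA, a match to ETS factor sites, and the E-box CAGCTG, a match to sites of myogenic factors.
Gmfg: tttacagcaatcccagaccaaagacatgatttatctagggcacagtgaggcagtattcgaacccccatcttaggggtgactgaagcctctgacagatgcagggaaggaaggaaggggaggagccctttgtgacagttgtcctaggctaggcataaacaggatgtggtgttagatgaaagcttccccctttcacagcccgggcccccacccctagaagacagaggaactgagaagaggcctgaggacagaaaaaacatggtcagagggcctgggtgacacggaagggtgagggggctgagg
Klkb1: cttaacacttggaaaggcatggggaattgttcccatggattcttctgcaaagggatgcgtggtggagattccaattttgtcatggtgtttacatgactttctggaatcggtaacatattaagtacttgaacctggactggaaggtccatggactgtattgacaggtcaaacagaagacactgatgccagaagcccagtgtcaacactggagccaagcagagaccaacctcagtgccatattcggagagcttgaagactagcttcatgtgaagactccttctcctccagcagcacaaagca
Chrne: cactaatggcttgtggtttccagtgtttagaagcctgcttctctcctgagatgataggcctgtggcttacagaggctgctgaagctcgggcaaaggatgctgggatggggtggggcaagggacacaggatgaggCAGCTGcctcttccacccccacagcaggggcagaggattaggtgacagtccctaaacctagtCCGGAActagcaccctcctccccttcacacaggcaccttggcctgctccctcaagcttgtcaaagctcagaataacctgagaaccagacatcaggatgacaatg
In Chrne the N-box began 54 bases before the start and the E-box 116 bases before it. Neither motif was found on either strand in the windows of Gmfg or Klkb1. Among 33469 rat promoter windows of the same length, 15.0% held CCGGAA and 15.1% held CAGCTG on either strand. A match is a run of letters and not a binding site, and the lack of one says only that these letters are not in this window. Nptx1 and Map3k7cl had no entry in the promoter table.

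The captures matched their labels. Chrne, the adult acetylcholine receptor subunit, had intensities of 904 to 1660 in TA_synapse and 2.64 to 6.99 in TA_fiber, with 2110 to 2620 in EOM_synapse and 3.48 to 50.8 in EOM_fiber. Myh13, the extraocular myosin heavy chain, had 3.66 to 10.5 in TA_synapse and 8.31 to 52.4 in TA_fiber, against 8050 to 11100 in EOM_synapse and 14900 to 38000 in EOM_fiber. Of 17 tested genes of a neuromuscular junction list, 12 were called higher and 0 lower in TA_synapse than in TA_fiber (median log2 difference 2.75, against -0.01 over all 10416 genes tested), and 12 and 0 in EOM_synapse against EOM_fiber (median 1.53, against -0.04). Over all genes, 6.7% were called higher and 3.53% lower in the TA contrast, and 5.62% and 4.51% in the EOM contrast.

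**Figure D1:**
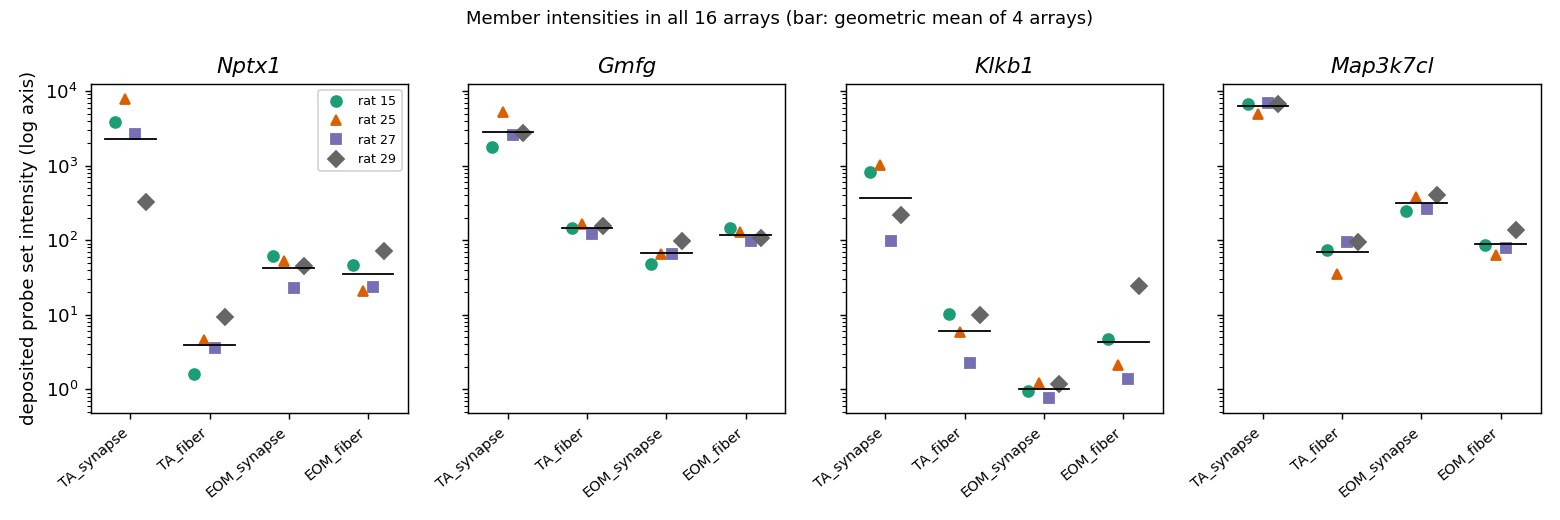
Deposited intensity of the 4 genes (log axis) in every array, by group, with 1 symbol per rat and a bar at the geometric mean of 4 arrays. All 4 TA_synapse arrays lie above the 12 other arrays for each gene, and Nptx1 and Klkb1 scatter most between rats.

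Nptx1 had the largest mean log2 difference between junction and fibre of all 10416 genes in TA, just above Chrna1 (6.77 against 6.75). That rank depended on the constant added before the log, since with 64 the Nptx1 difference was 5.11, below Map3k7cl at 5.53. With 1 it was 8.75. Its intensities in rats 15, 25, 27 and 29 were 3900, 7920, 2630 and 322 in TA_synapse, and 1.6, 4.52, 3.54 and 9.23 in TA_fiber. In EOM_synapse they were 61.4, 51.9, 23.2 and 44.5, and in EOM_fiber 46.2, 20.9, 23.4 and 71.8. Every TA_synapse array was above the other 12, although rat 29 gave a far lower value than the other 3 rats. The log2 levels averaged 11.17 ± 1.96 in TA_synapse, 4.39 ± 0.30 in TA_fiber, 5.91 ± 0.32 in EOM_synapse and 5.64 ± 0.54 in EOM_fiber (SD, n = 4 each). TA_synapse exceeded TA_fiber by 6.77 ± 2.24 over the 4 rats, with 3.57 in rat 29 and 8.65 in rat 25, and exceeded EOM_synapse by 5.25 ± 1.90 (SD, n = 4).

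Away from the TA junction, Nptx1 was lowest in TA fibre. Its level there was 1.25 ± 0.35 log2 units below EOM_fiber (SD, n = 4 rats), with every TA_fiber array below every EOM_fiber array. That order of arrays, TA_fiber wholly below EOM_fiber, was met by 8.39% of all genes. EOM_synapse and EOM_fiber overlapped and differed by 0.27 ± 0.56, with 3 of 4 rats higher at the junction. So the order of levels was TA_synapse, then the EOM groups without a difference beyond their spread, then TA_fiber. The TA_fiber values were near the floor, at percentiles 2.7 to 25.1 of their probe sets.

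Gmfg was bright in all 4 TA_synapse arrays and moderate everywhere else. It had 1790, 5170, 2560 and 2740 in TA_synapse of rats 15, 25, 27 and 29, and 146, 165, 122 and 157 in TA_fiber. EOM_synapse had 48.7, 65.3, 65.5 and 98.1, and EOM_fiber 147, 129, 98.6 and 107. The lowest TA_synapse array was thus well above the highest of the others, while the 12 other arrays spanned a narrow range. The log2 levels were 11.48 ± 0.65 in TA_synapse, 7.47 ± 0.14 in TA_fiber, 6.36 ± 0.31 in EOM_synapse and 7.04 ± 0.19 in EOM_fiber (SD, n = 4 each). TA_synapse exceeded TA_fiber by 4.02 ± 0.57 and EOM_synapse by 5.12 ± 0.65 (SD over 4 rats).

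In the eye muscles the direction of Gmfg at the junction was the opposite one. EOM_synapse was lower than EOM_fiber in 4 of 4 rats, by a mean difference of -0.68 ± 0.47 log2 units (SD), and the arrays did not overlap. The gap was slight, with a highest EOM_synapse intensity of 98.1 and a lowest EOM_fiber intensity of 98.6. Of all genes, 8.92% had every EOM_synapse array below every EOM_fiber array, and 8.19% had every one above. TA_fiber was above EOM_fiber by 0.43 ± 0.18 in 4 of 4 rats; their normalized values did not overlap, as in 7.98% of all genes, but their deposited intensities did. Gmfg was above its array's median in all 16 arrays.

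Klkb1 was near the bottom of the scale outside the TA junction. In rats 15, 25, 27 and 29 its intensities were 817, 1030, 96.7 and 218 in TA_synapse and 10.2, 5.82, 2.28 and 9.88 in TA_fiber. In EOM_synapse they were 0.938, 1.21, 0.768 and 1.18, and in EOM_fiber 4.73, 2.11, 1.37 and 24. Rats 15 and 25 gave the high values at the TA junction and rats 27 and 29 the lower ones, all of them above the other 12 arrays. The log2 levels were 8.57 ± 1.53 in TA_synapse, 4.55 ± 0.31 in TA_fiber, 4.11 ± 0.01 in EOM_synapse and 4.44 ± 0.50 in EOM_fiber (SD, n = 4 each). TA_synapse exceeded TA_fiber by 4.02 ± 1.47, from 2.54 to 5.61 among rats, and EOM_synapse by 4.45 ± 1.53 (SD over 4 rats).

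The EOM_synapse arrays placed Klkb1 between percentiles 1.2 and 1.8 of their probe sets. Among the 3 other groups the order cannot be read beyond the spread: EOM_synapse minus EOM_fiber was -0.33 ± 0.51 and TA_fiber minus EOM_fiber 0.11 ± 0.34, and the normalized values overlapped in both. The deposited intensities of EOM_synapse were all below those of EOM_fiber, by a narrow gap (1.21 against 1.37). Klkb1 was above its array's median in 4 arrays, the TA_synapse ones, and passed the filter on low values through that group. The log2 difference depended on the constant added before the log: TA_synapse minus EOM_synapse was 7.28 with a constant of 1, and 2.78 with 64. TA_synapse minus TA_fiber was 5.56 with 1 and 2.64 with 64.

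At the TA junction Map3k7cl varied least between animals of the 4 genes. Its TA_synapse intensities were 6620, 4860, 6870 and 6770 in rats 15, 25, 27 and 29, and its TA_fiber intensities 73.3, 35, 95.8 and 94.1. EOM_synapse had 246, 379, 266 and 407, and EOM_fiber 87.2, 63.4, 79.1 and 136. The TA_synapse arrays stood at percentiles 99.2 to 99.5 of their probe sets. The log2 levels were 12.67 ± 0.29 in TA_synapse, 6.51 ± 0.70 in TA_fiber, 8.31 ± 0.37 in EOM_synapse and 6.65 ± 0.42 in EOM_fiber (SD, n = 4 each). TA_synapse exceeded TA_fiber by 6.16 ± 0.44 and EOM_synapse by 4.35 ± 0.57 (SD over 4 rats).

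Map3k7cl was not confined to the TA junction. EOM_synapse was above EOM_fiber in 4 of 4 rats, by 1.67 ± 0.39 log2 units (SD). The arrays did not overlap, and 8.19% of all genes likewise had every EOM_synapse array above every EOM_fiber array. The mean difference of Map3k7cl is a 3.17-fold higher level on the log2(intensity + 16) scale, against 71.5-fold for TA_synapse over TA_fiber. The fibre groups overlapped and differed by -0.14 ± 0.55, TA minus EOM. Subtracting the EOM junction difference from that of TA left 4.49 ± 0.20, with 4.30 to 4.77 among rats. The same double difference was 6.50 ± 1.68 for Nptx1, 4.69 ± 0.63 for Gmfg and 4.35 ± 1.37 for Klkb1 (SD over 4 rats).

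**Figure D2:**
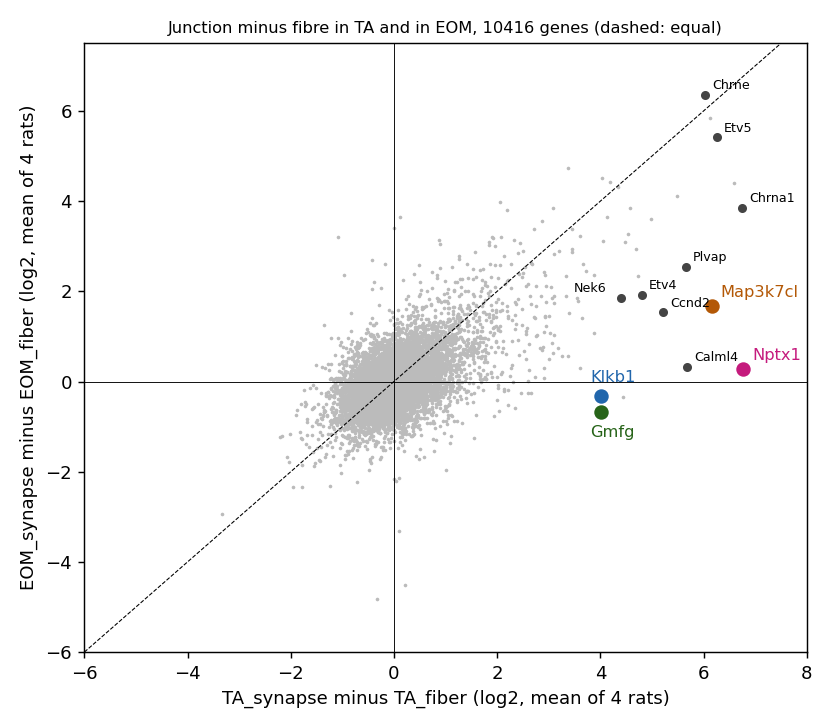
Mean log2 difference of junction minus fibre in TA (x axis) and in EOM (y axis) over 4 rats for 10416 genes. Nptx1, Gmfg and Klkb1 lie far to the right near or below 0 on the y axis, Map3k7cl lies at 1.67, and the receptor gene Chrne lies near the dashed line of equal differences.

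The pattern by which the genes were chosen was shared by other genes. In 137 of 10416 genes (1.32%) the lowest TA_synapse array was above the highest of the 12 others, and in 31 (0.298%) it was so by at least 1 log2 unit, the 4 genes included. This margin was 3.55 for Map3k7cl, 3.18 for Gmfg, 2.00 for Nptx1 and 1.55 for Klkb1, which ranked 2, 5, 9 and 17 among all genes. Calml4, a calmodulin-like gene, had the largest margin, at 4.35. Its intensities were 2650, 1390, 2430 and 3260 in TA_synapse and 4.04 to 50.9 in the other 12 arrays. Next among the non-members came Ccnd2 (cyclin D2) with 3.30, the kinase gene Nek6 with 3.20, Fez2 with 2.37 and the ETS factor Etv4 with 2.29. Ttc9, Cacna2d3, Thsd4, Nrros and Pvr followed with 2.13 to 1.69.

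Over the 16 arrays, the genes most like Map3k7cl were Ccnd2 (Pearson r 0.98), Etv4 (0.97), Phldb2 (0.95), Gramd2b (0.94) and Nek6 (0.94). Those most like Gmfg were Tspan13, Fez2, Nrros, Crim1 and Pvr, with r of 0.93 to 0.94. For Nptx1 they were Gramd2b (0.93), Bcl2l1, Sumo3, Amotl1 and Itgb5 (0.90), and for Klkb1 Fam98b-ps1 (0.92), Nrros, Nrarp, Itgb5 and Maoa (0.90). These correlations describe 16 arrays of 4 groups and include the TA_synapse group, which the choice of genes made high. Between pairs of the 4 genes r was 0.856 to 0.926 over all 16 arrays. Over the 12 arrays outside TA_synapse it ran from -0.777 (Gmfg with Map3k7cl) to 0.641 (Nptx1 with Map3k7cl), so the genes did not share 1 order there. Etv4 was at 491 to 721 in TA_synapse and 0.891 to 17.5 in TA_fiber, with 44 to 92.9 in EOM_synapse and 3.2 to 9.62 in EOM_fiber. Like Map3k7cl, it was also above fibre at the EOM junction.

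The spread between animals separated the 4 genes. At the TA junction the highest intensity was 24.6 times the lowest for Nptx1 and 10.7 times for Klkb1, but 2.9 times for Gmfg and 1.41 times for Map3k7cl. The SD of Nptx1 over the 4 TA_synapse arrays, 1.96 log2 units, ranked 2 among 10416 genes and that of Klkb1, 1.53, ranked 5. Among the other genes whose mean level in TA_synapse lay within 1 log2 unit, 809 for Nptx1 and 3199 for Klkb1, the median SD was 0.30 in both sets. Nptx1 had a larger SD than all 809, and Klkb1 ranked 3. Gmfg (SD 0.65) ranked 34 against 641 such genes, and Map3k7cl (SD 0.29) ranked 154 against 268. Genes of the captured junction varied less than Nptx1 and Klkb1: Chrna1, the receptor's alpha subunit, had 4970, 3940, 4330 and 4720 in the same arrays (SD 0.20), while Chrne had an SD of 0.36 and Etv5 of 0.60.

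**Figure D3:**
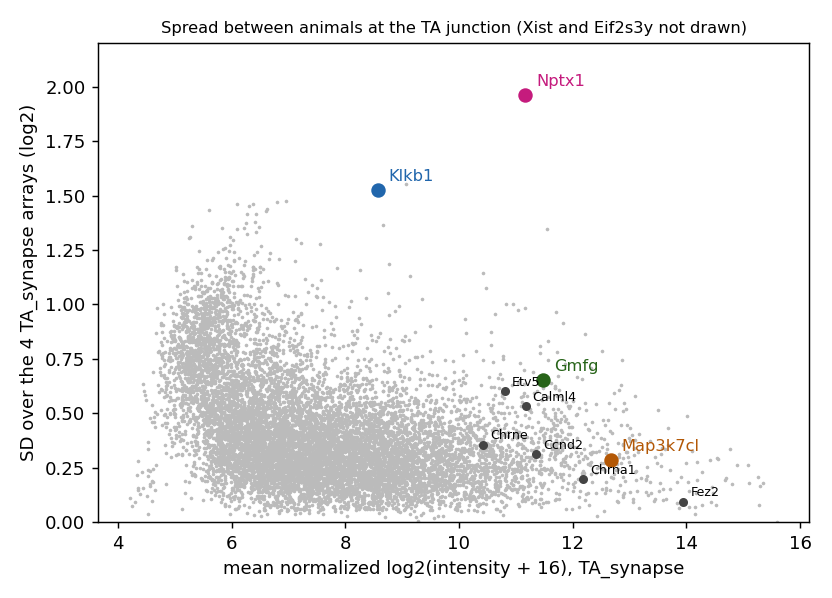
SD over the 4 TA_synapse arrays (log2, y axis) against the mean normalized log2 level in TA_synapse (x axis), 1 point per gene, with Xist and Eif2s3y not drawn. Nptx1 (1.96) stands above the genes of its level and Klkb1 (1.53, rank 3) above nearly all of its level, while Map3k7cl (0.29) lies among those of its own.

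The 4 genes did not order the rats alike at the TA junction. Rat 25 had the highest Nptx1, Gmfg and Klkb1 and the lowest Map3k7cl. Rat 29 had the lowest Nptx1, rat 27 the lowest Klkb1 and rat 15 the lowest Gmfg. Rats 15 and 25 were above rats 27 and 29 in both Nptx1 and Klkb1. This division was picked out from the values, and the share of all genes that show it was not counted. The same division, at a smaller size, was seen in the junction genes Etv5 (3040, 2160, 1100 and 1450 in rats 15, 25, 27 and 29) and Etv4 (721, 582, 495 and 491). It was not seen in Chrna1 (4970, 3940, 4330 and 4720) or Chrne (1660, 1380, 904 and 1650). The sum over 19 junction genes did not show it either (38500, 42600, 64300 and 41700). Without rat 29 the TA_synapse minus TA_fiber difference of Nptx1 was 7.84, and without rat 25 it was 6.15. For Klkb1 the same difference ran from 3.49 to 4.51 when 1 rat was left out.

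Rat 25 also differed from the others in sex-linked transcripts, which were looked up after their values had been seen. Xist, a transcript of the inactive X chromosome, was at 1180 to 3070 in the 4 arrays of rat 25, against 1.39 to 44.5 in the 12 others. Eif2s3y, a gene of the Y chromosome, was at 1.63 to 22.1 in rat 25 and 295 to 700 in the others. The same number thus carried the same transcript pattern in all 4 groups, and the labels used here give no sex. Whether this difference has a part in the values of rat 25 was not tested.

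Some markers of other cells divided the rats as well, and others did not. Summed over 6 fibroblast markers, TA_synapse intensity was 7470, 7980, 16600 and 18300 in rats 15, 25, 27 and 29, the reverse of the Nptx1 and Klkb1 division. Erythrocyte and platelet markers summed to 317, 398, 647 and 1070, and markers of liver and plasma proteins to 223, 261, 363 and 408. Schwann cell markers summed to 4800, 3560, 5590 and 5800, and motor nerve markers to 318, 331, 463 and 350. Endothelial markers (3060, 2870, 3750 and 2300) and leukocyte markers (1320, 1160, 1120 and 1690) did not divide the rats that way. The fibroblast division was not limited to the TA junction: in the same rats the sums were 1900, 1090, 4640 and 6050 in TA_fiber, 11300, 13300, 20800 and 21700 in EOM_synapse, and 3150, 6210, 15700 and 14400 in EOM_fiber. The part of these differences in the spread of Nptx1 and Klkb1 was not tested.

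**Figure D4:**
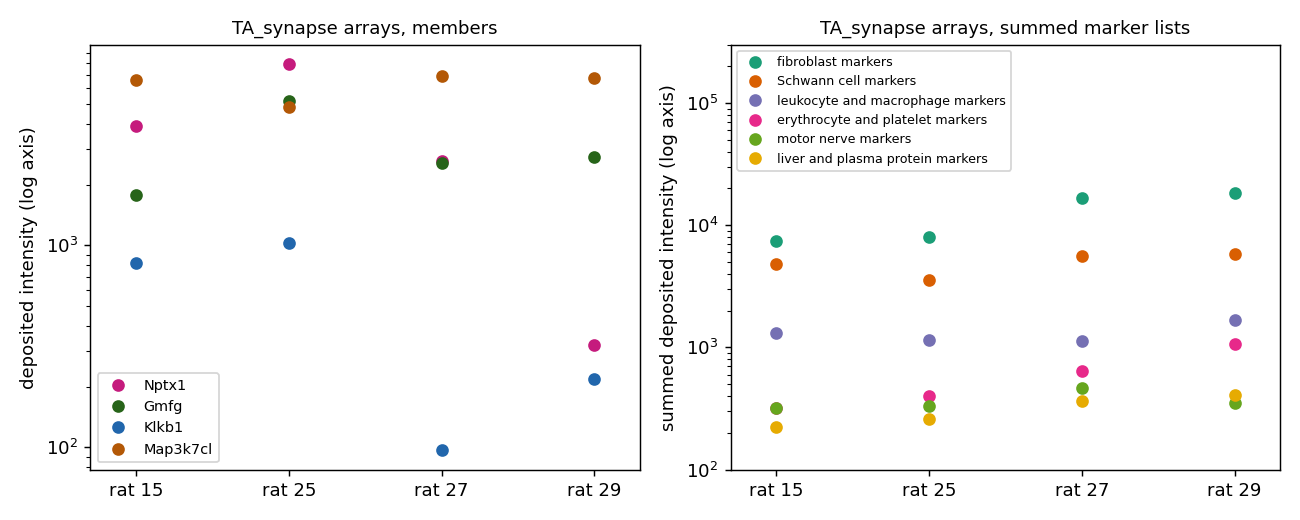
Deposited intensity (log axes) in the 4 TA_synapse arrays by rat, for the 4 genes (left) and for summed marker lists of other cell types (right). Nptx1 and Klkb1 are higher in rats 15 and 25. The sums of all the drawn lists except leukocyte and macrophage markers are lower in those rats.

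Markers of the cells in which these genes are best known were summed in each group. For Gmfg, leukocyte and macrophage markers summed to 1120 to 1690 in TA_synapse and 995 to 1430 in TA_fiber, with 1210 to 2000 in EOM_synapse and 2050 to 2610 in EOM_fiber. Of the 12 tested, limma called 0 in TA_synapse minus TA_fiber, with 2 at an unadjusted p under 0.05, and 0 in TA_synapse minus EOM_synapse, with 1 at that p. In EOM_synapse minus EOM_fiber limma called 0 higher and 1 lower, against 4.51% of all genes lower, with 2 at that p. The lower gene was Mrc1 (-1.043 ± 0.295, SE, adjusted p = 0.0392, 4 of 4 rats). Its call was lost in 15 of 32 alternatives (highest adjusted p = 0.176). Ptprc, the pan-leukocyte antigen, was at 32.3 to 55.1 in TA_synapse and 10.8 to 42 in TA_fiber. For Klkb1, liver and plasma protein markers summed to 223 to 408 in TA_synapse and 203 to 404 in TA_fiber, with 127 to 270 in EOM_synapse and 215 to 327 in EOM_fiber. Only 3 of the 13 with a probe set passed the filter, and limma called 0 of them in any contrast, with 0 at an unadjusted p under 0.05. Alb, the albumin gene, was at 0.905 to 70.1 in TA_synapse and 2.53 to 75.2 in TA_fiber.

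For Nptx1, a neuronal gene, motor nerve markers summed to 318 to 463 in TA_synapse and 188 to 577 in TA_fiber, with 324 to 697 in EOM_synapse and 386 to 748 in EOM_fiber. Of 16 markers 4 passed the filter, and Chat and Snap25 did not. Gap43, a growth-associated axon protein also made by Schwann cells, rose in TA_synapse over TA_fiber by 1.33 ± 0.23 (SE, adjusted p = 0.0018, 4 of 4 rats). Against EOM_synapse, TA_synapse was lower in Gap43 (-0.76 ± 0.23, adjusted p = 0.0348) and in the neurofilament gene Nefm (-1.42 ± 0.37, adjusted p = 0.0187), each in 4 of 4 rats. Both of these calls were lost with no block and with the rat as a random block, and the highest adjusted p over all alternatives was 0.206 for Gap43 and 0.149 for Nefm. Among single omissions, Gap43 lost it without TA_synapse 25, 27 or 29, EOM_synapse 15, 25 or 27 or any 1 rat, and Nefm without TA_synapse 27, EOM_synapse 25 or 27 or rat 15, 25 or 27. Schwann cell markers did move with the junction: 7 of 9 tested were higher and 0 lower in TA_synapse than in TA_fiber, and likewise 7 and 0 in EOM_synapse against EOM_fiber. Their sums were 3560 to 5800 in TA_synapse and 560 to 819 in TA_fiber, with 7530 to 12700 in EOM_synapse and 1860 to 2810 in EOM_fiber. Between the junctions, the myelin genes Mbp and Pmp22 and their regulator Egr2, 3 of the 9, were lower in TA_synapse than in EOM_synapse, where 8.61% of all genes were higher and 7.82% lower. Fibroblast markers were higher at both junctions: 6 of 6 in TA_synapse over TA_fiber, where 6.7% of all genes were higher, and 4 of 6 in EOM_synapse over EOM_fiber, where 5.62% were. Their sums were 7470 to 18300 in TA_synapse and 1090 to 6050 in TA_fiber, with 11300 to 21700 in EOM_synapse and 3150 to 15700 in EOM_fiber. Of the TA calls, those of Col1a1 and Col3a1 were lost with no block and with the rat as a random block (highest adjusted p = 0.232 and 0.292). Of the EOM calls, those of Col1a2 and Dcn were lost in 12 and 6 of 32 alternatives (highest adjusted p = 0.444 and 0.0925). In such mixed captures, a change in the number of cells of a type and a change of RNA per cell cannot be told apart.

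The partners of Nptx1 were mostly dim. Of 9 genes of pentraxins and AMPA receptors, 7 had a probe set and 1, the receptor subunit Gria4, passed the filter. The pentraxin receptor Nptxr had 3.76 to 39.8 in TA_synapse and 2.65 to 39.6 in TA_fiber. The AMPA subunit Gria1, below the filter and so not tested, had 34.5 to 145 in TA_synapse and 1.66 to 5.25 in TA_fiber, with 7.85 to 38.1 in EOM_synapse and 1.83 to 20.2 in EOM_fiber. Its TA_synapse arrays were all above TA_fiber and overlapped with EOM_synapse. Gria4 differed by 1.24 ± 0.38 (SE) between TA_synapse and TA_fiber (adjusted p = 0.0562, 3 of 4 rats). It was higher in EOM_synapse than in EOM_fiber by 1.49 ± 0.38 (adjusted p = 0.0245) and lower in TA_synapse than in EOM_synapse, at -1.25 ± 0.38 (adjusted p = 0.0402), each in 4 of 4 rats, the opposite order of Nptx1 at the 2 junctions. The Gria4 call in EOM_synapse minus EOM_fiber was lost in 10 of 32 alternatives (highest adjusted p = 0.141). Among them was the omission of EOM_synapse 15, 25 or 29, EOM_fiber 15, 25 or 29, or rat 15, 25 or 29. The call between the junctions was lost in 15 of 32 (highest adjusted p = 0.149). Among those was the omission of TA_synapse 15, 25 or 27, TA_fiber 29, any 1 EOM_synapse array, or any 1 rat.

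Around Gmfg, 3 of 18 tested genes of the GMF, cofilin and Arp2/3 list rose in TA_synapse over TA_fiber and 0 fell, with a list median of 0.34, against 6.7% and 3.53% of all genes. In EOM_synapse over EOM_fiber 4 of 18 rose and 0 fell, against 5.62% and 4.51% of all genes. Dbnl, the actin-binding adaptor drebrin-like, rose by 2.07 ± 0.29 (SE, adjusted p = 0.000361) and Twf1, a twinfilin that caps and severs actin, by 1.09 ± 0.21 (adjusted p = 0.00496), each in 4 of 4 rats. Twf1 lost its call without rat 27 (adjusted p = 0.0582). Arpc5, an Arp2/3 subunit, rose by 0.77 ± 0.20 (adjusted p = 0.0231). That call was lost, with adjusted p of 0.0503 to 0.151, without TA_synapse 25, 27 or 29, without TA_fiber 15, 27 or 29, or without rat 25, 27 or 29. It was also lost with no block, the rat as a random block, common medians or only the arrays of the contrast (0.0636 to 0.103). At the EOM junction Arpc5 rose over fibre by 1.23 ± 0.20 (adjusted p = 0.00133) and Twf1 by 0.85 ± 0.21 (adjusted p = 0.0222), each in 4 of 4 rats. The EOM call of Twf1 was lost without EOM_synapse 15 or 25, EOM_fiber 15 or 29 or any 1 rat (highest adjusted p = 0.179). Wasl, an activator of Arp2/3, also rose there (0.84 ± 0.22, adjusted p = 0.0282). Its call failed on omission of EOM_synapse 15, 25 or 29, EOM_fiber 15 or 25 or any 1 rat, with a highest adjusted p of 0.205, and under other settings up to 0.463. Gmfb, the closest relative of Gmfg, was well above the array median in every group. It had 670 to 941 in TA_synapse and 524 to 702 in TA_fiber (log2 difference 0.32 ± 0.18, adjusted p = 0.32), with 886 to 1020 in EOM_synapse and 553 to 756 in EOM_fiber (0.63 ± 0.18, adjusted p = 0.0439). The EOM call was lost, with adjusted p of 0.0505 to 0.205, without any 1 rat and without any 1 of 13 arrays, the exceptions being TA_synapse 29, TA_fiber 25 and EOM_fiber 25. Between the junctions, TA_synapse minus EOM_synapse, the Arp2/3 subunit gene Arpc5l was higher by 1.46 ± 0.24 (adjusted p = 0.000965) and Arpc5 lower, at -1.07 ± 0.20 (adjusted p = 0.00212), each in 4 of 4 rats. The Arpc5l call was lost with the mean of all probe sets of the gene (adjusted p = 0.127).

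Around Klkb1, 5 of the 11 kallikrein-kinin genes with a probe set were bright enough to test. F12, the protease that activates prekallikrein, had 5.01 to 45.9 in TA_synapse and 4.51 to 19.6 in TA_fiber and was below the filter, as were the bradykinin receptors Bdkrb1 and Bdkrb2. Of the 5 tested, 2 rose in TA_synapse over TA_fiber and 0 fell, against 6.7% and 3.53% of all genes. In EOM_synapse over EOM_fiber 2 also rose and 0 fell, against 5.62% and 4.51% of all genes. Serping1, the C1 inhibitor that blocks plasma kallikrein, rose by 2.09 ± 0.38 (SE, adjusted p = 0.00278, 4 of 4 rats). Its call was lost with only the arrays of the contrast (adjusted p = 0.068). Cpm, a carboxypeptidase that trims kinins, rose by 1.54 ± 0.37 (adjusted p = 0.0172, 3 of 4 rats). The Cpm call was lost, with adjusted p of 0.0532 to 0.151, without TA_synapse 15, 25 or 29, without TA_fiber 15 or 25, or without rat 15, 25 or 29. It was also lost with the mean of all probe sets of the gene or only the arrays of the contrast (0.0606 to 0.115). At the EOM junction, where Klkb1 was near the floor, Cpm rose over fibre by 2.50 ± 0.37 (adjusted p = 0.000824, 4 of 4 rats). Prcp, of the same list, also rose there (1.33 ± 0.37, adjusted p = 0.0366, 4 of 4 rats). It was lower in TA_synapse than in EOM_synapse (-1.31 ± 0.37, adjusted p = 0.0268, 3 of 4 rats). These Prcp calls were lost in 14 and 11 of 31 alternatives (highest adjusted p = 0.205 and 0.179).

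Around Map3k7cl, the TAK1 kinase list of 14 tested genes showed 1 rise and 1 fall in TA_synapse minus TA_fiber, near the 6.7% and 3.53% of all genes. Map3k7 itself had 149 to 616 in TA_synapse and 213 to 649 in TA_fiber, a log2 difference of -0.21 ± 0.35 (SE, adjusted p = 0.779). Map2k6, a kinase upstream of p38, fell by 1.23 ± 0.18 on the log2 scale (adjusted p = 0.000563, 4 of 4 rats). It was also lower in EOM_synapse than in EOM_fiber (-0.85 ± 0.18, adjusted p = 0.00918, 4 of 4 rats), a call lost without rat 15 or 29 (highest adjusted p = 0.0825) and with common medians (0.138). The difference between the muscles was -0.38 ± 0.26 (adjusted p = 0.654). Mapk14, which encodes p38 alpha, rose by 0.70 ± 0.18 (adjusted p = 0.0226). That call was lost, with adjusted p of 0.0502 to 0.114, without TA_synapse 15, 25 or 29, without TA_fiber 27 or 29, or without any 1 of the 4 rats. It was also lost with no block, the rat as a random block, common medians or only the arrays of the contrast (0.0628 to 0.229). Between the junctions, Mapk14 was higher in TA_synapse than in EOM_synapse by 1.33 ± 0.18 (adjusted p = 0.000215) and Tab2, an adaptor of TAK1, by 0.99 ± 0.19 (adjusted p = 0.00289), each in 4 of 4 rats.

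The difference between the junction differences of the 2 muscles was itself tested for the list genes. Over all genes, 0.662% were called with a greater and 0.259% with a smaller junction difference in TA than in EOM. In the lists around the 4 genes, 1 gene was called: Dbnl, by 1.90 ± 0.41 (SE, adjusted p = 0.0455, 4 of 4 rats). That call was lost when any 1 TA_synapse or EOM_synapse array was left out, when array 15, 25 or 27 of TA_fiber or EOM_fiber was left out, or without rat 15, 25 or 27, with adjusted p of 0.0545 to 0.286. It was also lost at a pseudocount of 1, with common medians, the probe set of highest variance or no filter on low values (0.0586 to 0.113). Of 17 tested junction genes, 3 were called with a greater difference in TA, namely Chrna1 (2.89 ± 0.45, adjusted p = 0.00698), Etv4 (2.88 ± 0.35, adjusted p = 0.0011) and Lrp4 (1.75 ± 0.31, adjusted p = 0.0175). Chrna1 lost its call without rat 15 or 29 (highest adjusted p = 0.0995) and at a pseudocount of 1 (0.115). Etv4 lost it at a pseudocount of 1 and with the filter at 8 arrays (0.092 to 0.446). Lrp4 lost it without TA_synapse 15 or 29, EOM_synapse 29 or any 1 rat (highest adjusted p = 0.161), and with common medians or no block (0.0959 to 0.126). TA_synapse minus EOM_synapse was not called for Chrna1 (-0.63 ± 0.32, adjusted p = 0.203), Lrp4 (0.17 ± 0.22, 0.653) or Dbnl (0.10 ± 0.29, 0.861). It was called for Etv4 (2.81 ± 0.25, adjusted p = 5.96e-06), except at a pseudocount of 1 (0.373). In fibre, Chrna1 had 2.79 to 66.3 in TA_fiber and 358 to 544 in EOM_fiber, and Dbnl had 7.96 to 41.6 and 76.3 to 157.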

How the data were processed

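Messenger RNA was measured on 16 Affymetrix rat arrays, 4 per group. Per the labels, captured RNA was primed with oligo(dT) and went through repeated linear amplification. The deposited file holds linear intensity per probe set, and from its values the mean without the outer 2% at either end is alike on every array. The summarisation method was not given in the sources. Array medians ran from 33.33 to 56.92.

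Of 31099 probe sets, 57 controls were dropped. Genes were named through the array annotation and the gene table of GRCr8 (20826 probe sets with 1 gene, 436 with several, 9780 not listed). Values were quantile normalized as log2(intensity + 16). Probe sets above the array median in at least 4 arrays were tested, and each gene was represented by its brightest probe set on average (10416 genes). limma 3.58.1 in R 4.3.3 fitted 4 group means with the rat as a fixed block, with Benjamini-Hochberg adjustment over all genes and a threshold of 0.05. Members got no test.

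Title numbers were read as animals: the design text takes TA from all 4 rats, and deviations from group means in 24 same-number pairs correlated with a mean r of 0.112 (-0.0666 to 0.245), with 14 of 16 arrays closest to their own number. A batch shared under 1 number cannot be told apart from an animal.

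Members and gene lists were chosen with earlier results of these data known. Named genes are the members, the 5 most correlated genes of each, the 10 non-members with the largest margin and list genes (up to 4 past the threshold per list and contrast). Alternatives covered the pseudocount, normalization, filter, choice of probe set, block, prior, arrays in the fit, and omission of single arrays or rats.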

Additional observations from a re-analysis of the deposited data

Results flagged for a closer look

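In 16 groups of 4 arrays, 1 per member and group, 2 held an array far from the other 3 by Dixon's criterion, which chance meets in about 1 in 20 groups. Map3k7cl in TA_synapse had its lowest array, rat 25, apart by 0.924 of the group's range (intensity 4860, against 6620 to 6870). Klkb1 in EOM_fiber had its highest array, rat 29, apart by 0.87 of the range (24, against 1.37 to 4.73).

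By sign alone, Gmfg and Klkb1 were higher at the junction than in fibre in every rat in TA and lower in every rat in EOM, with double differences of 4.69 and 4.35 on the log2 scale. This difference was not tested, since it is close to what chose them, and for Klkb1 the EOM values are near the floor, the normalized values of the EOM groups overlap and rat 27 differed there by almost nothing. Among list genes the double difference passed the threshold in limma for Dbnl (1.90), Chrna1 (2.89), Lrp4 (1.75), Etv4 (2.88), Plvap, a protein of fenestrated endothelium (3.10, adjusted p = 0.0117), and Col1a1, a fibrillar collagen (1.60, adjusted p = 0.00528). Plvap lost its call without rat 15, 25 or 27 (highest adjusted p = 0.119) and at a pseudocount of 1 (0.097). Of the 7 tested endothelial markers Plvap alone was called in this contrast, and Kdr, Emcn and Esam were lower in TA_synapse than in TA_fiber (list median -0.73), calls that were lost on omission of single arrays or rats and under other settings (highest adjusted p = 0.187, 0.16 and 0.139). Col1a1 lost its call without rat 15, 27 or 29 (highest adjusted p = 0.0843), and with common medians, the mean of all probe sets, no block or the rat as a random block (0.064 to 0.736). Of these list genes, Etv4 and Plvap were also called higher in TA_synapse than in EOM_synapse. Dbnl, Chrna1, Lrp4 and Col1a1 were not called between the junctions.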

How the results depend on the processing

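Among 106 calls of list genes, 0 changed direction in up to 32 alternatives each, and 516 of the resulting values fell short of the threshold. Calls in TA_synapse minus TA_fiber numbered 1066, and 606 with only the arrays of the contrast. Calls in TA_synapse minus EOM_synapse numbered 1712, and 1139 with arrays centred on a common median. Calls in EOM_synapse minus EOM_fiber numbered 1055, and 689 with common medians, where 79.4% of calls were higher against 55.5% before. With the values as deposited, 47.1% of TA_synapse minus EOM_synapse calls were higher, against 52.4%. For the double difference 96 genes were called, with 46 at a pseudocount of 1, 218 at 64, 56 with common medians, which moved its median over all genes to -0.104, and 204 with an intensity trend in the prior. With no replicate block the counts were 903, 1474, 831 and 73, in the same order of contrasts, and with the rat as a random block 1055, 1685, 1009 and 103. Leaving out 1 array gave 711 to 1202, 1136 to 1932, 634 to 1121 and 56 to 99 calls, and leaving out 1 rat 586 to 648, 903 to 1178, 475 to 602 and 25 to 33. Genes with TA_synapse above all other arrays numbered 137 to 217 without 1 array and 215 to 252 without 1 rat, since fewer arrays have to be ordered. For the members, Klkb1 moved at a pseudocount of 1 to 5.56 over TA_fiber and 7.28 over EOM_synapse. At 64 it moved to 2.78 over EOM_synapse, while its 2.64 over TA_fiber was a shift within its spread between rats. Map3k7cl moved at 64 to 5.53 over TA_fiber, and Nptx1 went to 8.75 at 1 and 5.11 at 64, shifts within its spread between rats. Without 1 array or 1 rat, TA_synapse minus TA_fiber ran from 6.14 to 7.83 and 6.15 to 7.84 for Nptx1, from 3.74 to 4.23 and 3.77 to 4.24 for Gmfg, from 3.50 to 4.55 and 3.49 to 4.51 for Klkb1, and from 5.88 to 6.35 and 5.97 to 6.29 for Map3k7cl. TA_synapse minus EOM_synapse ran from 4.62 to 6.31 and 4.70 to 6.17 for Nptx1, from 4.85 to 5.34 and 4.80 to 5.26 for Gmfg, from 3.94 to 4.99 and 3.99 to 5.06 for Klkb1, and from 4.20 to 4.64 and 4.18 to 4.58 for Map3k7cl. The causes of these shifts were not tested. Signals near the floor limit Klkb1 outside TA_synapse and Nptx1 in TA_fiber, and 1 probe set per gene leaves cross-hybridisation unchecked.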
